A study of Mus musculus with 8 samples.

Results

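Transcripts of 10 antimicrobial genes were examined in forepaw skin of 4 Krt16 null mice and 4 wild-type (WT) littermates. The genes were the beta-defensins Defb1, Defb3, Defb4, Defb6, Defb8 and Defb14, the cathelicidin gene Camp, the lipocalin gene Lcn2, and Slpi and Wfdc12, which encode WAP-domain proteins. They were selected by the gene symbol in the array's probe annotation, and 9 of the 10 had a probe set annotated to that gene alone, among 30624 genes tested in all. The probe set of Slpi also carried the symbol of the microRNA gene Mir7678, so its values are given as those of the probe set annotated to Slpi and Mir7678 and stand outside the gene counts. All mice were C57Bl/6 and 8 weeks old, and each genotype held 2 males and 2 females. In the null mice the Krt16 coding sequence had been replaced by bacterial LacZ. The labels call every null sample lesional and every WT sample normal, so the effects of genotype and lesion cannot be told apart. RNA was taken from the skin of the whole paw, a mixture of cell types, in which fewer cells of a type and less RNA per cell cannot be told apart.

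Beta-defensins are short cationic peptides held together by disulfide bonds, and epithelia secrete them onto their surfaces, where they disrupt microbial membranes. Cathelicidin is stored in neutrophil granules and is also made by keratinocytes, lipocalin 2 withholds iron from bacteria by binding their siderophores, and SLPI is an inhibitor of neutrophil serine proteases with antibacterial activity. In stressed or inflamed epidermis several of these genes are known to be switched on in the keratinocytes themselves.

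Values are robust multi-array average (RMA) signals on the log2 scale, 1 array per mouse. Differences are null minus WT on that scale, with their standard error (SE), and the threshold was a p under 0.05 after Benjamini-Hochberg adjustment over all genes. Each array's negative control probe sets had a median of 4.26 to 4.46, and sizes of change from signals under them are not exact. Of the keratinocyte markers, 10 of 10 lay above these medians, and 3 of them, Krt9, Krt2 and Lor, were lower in null skin. Krt16 itself gave 6.83, 6.88, 6.89 and 6.995 in the null arrays, against 8.48, 8.20, 7.05 and 9.66 in the WT arrays. The null arrays were the lowest, female WT 1 lay just above them, and the difference of -1.45 was not called (SE 0.44, adjusted p = 0.0617). Which stretch of the transcript this probe set reads was not checked. Xist read 3.55 to 3.74 in the arrays labelled male and 10.1 to 10.5 in those labelled female. Markers of skeletal muscle were lower in null skin in 10 of 12 genes, with summed linear signals of 4622 to 6977 in null arrays and 8549 to 13960 in WT arrays. Sebaceous gland markers were lower in 6 of 7 genes, macrophage markers in 2 of 10 and sweat gland markers in 1 of 12. Of 5 T cell markers 1 was higher, though no T cell marker exceeded the highest negative control median, 4.46, in any array. Of all genes, 5.97% were called lower and 7.03% higher.

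Of the 9 genes, 6 were higher in null skin, 0 were lower and 3 were not called, where 7.03% of all genes were called higher and 5.97% lower. At an unadjusted p under 0.05 the counts by the same limma test were also 6 and 0. The higher genes were Defb1, Defb3, Defb4, Defb6, Defb14 and Lcn2. Camp, Wfdc12 and Defb8 were not called, the last with opposite differences in males and females. The median difference was 1.09 over the 9 genes and 0.01 over all genes. In 5 of 9 genes every null array exceeded every WT array, which held for 10.1% of all genes.

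**Figure D1:**
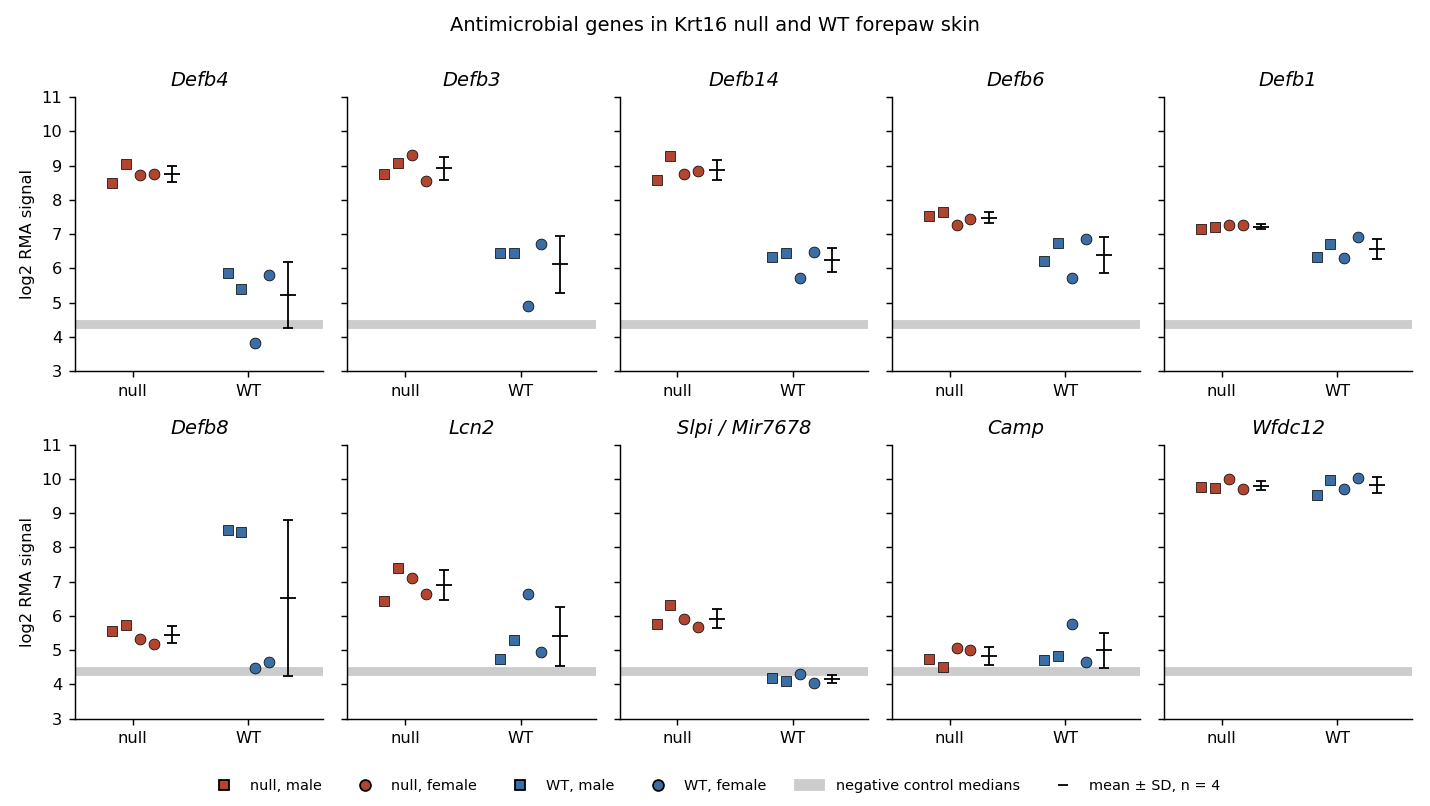
RMA signal on the log2 scale (vertical axes) of the 10 antimicrobial probe sets in each null and WT array, with squares for males, circles for females, the mean ± SD of 4 mice, and a grey band for the negative control medians. The null arrays of Defb4, Defb3 and Defb14 lie between 8.50 and 9.32, above all their WT arrays, while those of Wfdc12 lie among their WT arrays.

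The beta-defensin that differed most was Defb4, an inducible gene often compared with human beta-defensin 2. Its signal was 8.50, 9.05, 8.71 and 8.74 in male null 1, male null 2, female null 1 and female null 2, against 5.87, 5.40, 3.82 and 5.79 in male WT 1, male WT 2, female WT 1 and female WT 2. The null arrays lay close together and well above all WT arrays, and female WT 1 was below the negative control medians. The means were 8.75 ± 0.23 in null and 5.22 ± 0.96 in WT skin (SD, n = 4 each), a difference of 3.53 (SE 0.37, adjusted p = 0.000674), or 11.6-fold. Without female WT 1 the difference was 3.06.

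Defb14, related to human beta-defensin 3, had the most even WT signals of the 3 members with the largest rises. It read 8.59, 9.29, 8.76 and 8.85 in the null arrays, in the same order of mice, against 6.34, 6.44, 5.73 and 6.48 in the WT arrays. No WT array came near a null array, the gap between the groups being 2.11. Null skin averaged 8.87 ± 0.30 and WT skin 6.25 ± 0.35 (SD, n = 4 each), a difference of 2.62 (SE 0.18, adjusted p = 5.37e-05), or 6.16-fold.

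Defb3 gave 8.76, 9.07, 9.32 and 8.54 in the null arrays, against 6.45, 6.44, 4.90 and 6.72 in the WT arrays. The groups did not overlap, and female WT 1 stood apart below the other WT arrays. The difference was 2.79 (SE 0.35, adjusted p = 0.00166), or 6.94-fold, between 8.92 ± 0.34 in null and 6.13 ± 0.83 in WT skin (SD, n = 4 each).

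Smaller rises were measured for Defb6 and for Defb1, the beta-defensin that many epithelia make without induction. Defb6 read 7.54, 7.66, 7.27 and 7.44 in the null arrays, against 6.22, 6.75, 5.72 and 6.85 in the WT arrays, a difference of 1.09 (SE 0.21, adjusted p = 0.0117). Defb1 read 7.14, 7.22, 7.26 and 7.27 in the null arrays, against 6.35, 6.71, 6.30 and 6.93 in the WT arrays, a difference of 0.65 (SE 0.13, adjusted p = 0.0124). Neither gene overlapped between the groups, but for Defb1 the gap was only 0.21. Its null arrays were nearly identical (SD 0.06, n = 4), while the WT arrays spread more (SD 0.30, n = 4).

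Across the 10 probe sets the arrays of a genotype did not scatter evenly. Female WT 1 had the lowest WT signal in 6 of 10, which were all 6 beta-defensins, and the highest WT signal in 3, which were Camp, Lcn2 and the probe set annotated to Slpi and Mir7678. Male null 2 had the highest null signal in 6 of 10. Without female WT 1, 6 genes were again higher.

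Skeletal muscle signal was lower in the null arrays, where these beta-defensins were higher. With the mean of the 12 muscle markers as a covariate beside sex, the differences were 1.99 for Defb4, 1.23 for Defb3, 0.28 for Defb6 and 0.16 for Defb1, none of them called. Defb14 stayed called at 1.86 (adjusted p = 0.00261). The mean muscle signal did not overlap between the genotypes, at 8.30 to 8.89 in null and 9.08 to 9.88 in WT arrays, so this fit had few arrays to separate muscle from genotype.

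In RefSeq's gene order on chromosome 8 (assembly GRCm38.p6) the beta-defensin members other than Defb1 lie close together, and this stretch was examined after the values had been seen. The table lists 8 genes from Defb14 to Defb3, 7 of them were measured, and 7 of 7 were higher in null skin without overlap of the groups, against 7.03% and 10.1% of all genes. The members at both ends set the limits of the stretch, and 4 of the 7 were the members Defb14, Defb4, Defb6 and Defb3, so the count is a description. The other 3 were the pseudogene Defa-ps12 and the beta-defensins Defb46 and Defb5. Defb46 differed by 0.93 (adjusted p = 0.000485) and Defb5 by 0.67 (adjusted p = 0.00235). Defa-ps12 read 5.94, 6.64, 5.99 and 6.61 in the null arrays, against 2.70, 2.84, 2.29 and 2.98 in the WT arrays. The difference was 3.59 (adjusted p = 1.51e-05), but its WT signals were all under the negative control medians, so this size is not exact. Set against those medians it was at least 3.899-fold higher in null skin, a size that was not itself tested.

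On one side of this stretch most measured genes had no mean signal above the negative controls. The 8 measured genes listed before Defb14, among them Defb40, Defb38, Defb39, Defb34 and both Spag11 genes, differed by -0.15 to 0.16, and 0 of 8 were called by limma (1 at an unadjusted p under 0.05). The WT means of 6 of these 8 lay under the negative control medians. The null means of these 6 did too, at 2.27 to 3.59, and Defb34 lay close to the medians (4.14 in null and 4.29 in WT skin). Xkr5, the first gene listed on this side, was above the medians (4.79 in null and 4.93 in WT skin) and differed by -0.13, not called by limma (adjusted p = 0.247). Where the rise ends between Defb14 and Xkr5 therefore cannot be told. On the other side, past Defb3, 2 of 6 measured genes were called, Defa-ps13 with 0.50 (adjusted p = 0.00846) and Defb7 with 0.54 (adjusted p = 0.0361), at or under the negative controls in null as well as WT skin: Defa-ps13 exceeded its array's median in 0 of 8 arrays and Defb7 in 1 of 8. Beta-defensin genes of this cluster resemble each other, and signal that one probe set takes from the transcript of a paralog was not tested.

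**Figure D2:**
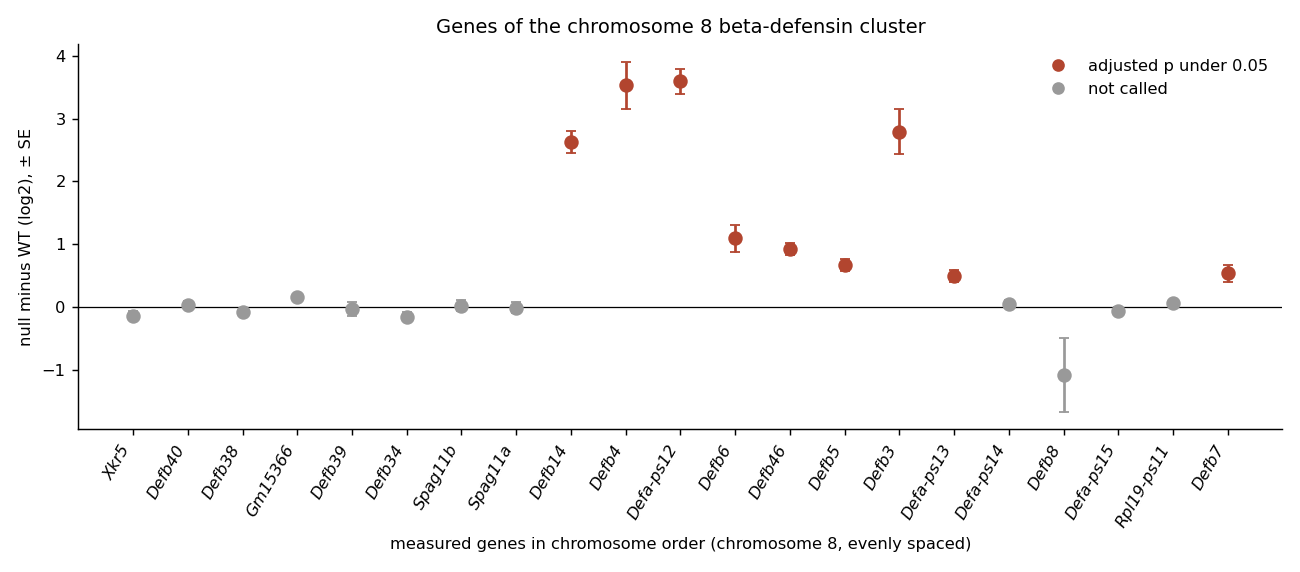
Null minus WT difference (log2, vertical axis, ± SE) of the measured genes of the beta-defensin cluster, evenly spaced in chromosome order, in red where the adjusted p was under 0.05. The 7 measured genes from Defb14 to Defb3 lie between 0.67 and 3.59, and the 8 before them between -0.15 and 0.16. Of these 8, 6 averaged under the negative control medians in null and in WT skin.

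Defb8, which lies past Defb3 in the same cluster, differed from its neighbours. It read 5.55, 5.74, 5.33 and 5.18 in male null 1, male null 2, female null 1 and female null 2, against 8.52, 8.46, 4.47 and 4.66 in the WT arrays in the same order. Both male WT arrays were far above all others, and both female WT arrays were the lowest. Over both sexes the means were 5.45 ± 0.25 in null and 6.53 ± 2.27 in WT skin (SD, n = 4 each), and the difference of -1.07 was not called (SE 0.59, adjusted p = 0.294).

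Within males Defb8 fell by 2.84 in null skin (SE 0.11, adjusted p = 2.00e-05), a contrast in which 2.21% of all genes were called. Within females it rose by 0.69 (SE 0.11, adjusted p = 0.0180), where 2.99% were called. The female WT signals, 4.47 and 4.66, lay just above the negative control medians of their arrays, 4.27 and 4.46. The size of the rise in females is therefore uncertain. In a fit of the 4 female arrays alone the rise was not called (adjusted p = 0.0613). The difference between the effect in males and the effect in females was -3.54 (SE 0.15, adjusted p = 0.000340), the smallest interaction p of all 30624 genes. Only 2 genes, 0.00653% of all, were called for this interaction. Each sex and genotype had 2 mice, and the spread was shared over the 4 groups.

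The other gene called for the interaction was C7, a component of the complement membrane attack complex, which is named here after its values had been seen. It read 3.80, 3.47, 3.43 and 3.43 in the null arrays, against 6.06, 6.21, 3.66 and 3.49 in the WT arrays, and its interaction was -2.35 (adjusted p = 0.0129). As for Defb8, only the male WT arrays were high. All other C7 signals were under the negative control medians of their arrays, so the size of its interaction is not exact. The remaining members had no called interaction, and their adjusted p for it ran from 0.970 to 1.00. Defb4 differed by 3.14 in males and 3.92 in females, and Defb14 by 2.55 in males and 2.70 in females, each called in both sexes. Defb3 differed by 2.47 in males, not called (adjusted p = 0.0526), and by 3.12 in females (adjusted p = 0.0229). Those of Defb6 (1.12 in males and 1.07 in females), Defb1 (0.65 in both) and Lcn2 (1.90 in males and 1.09 in females) were not called within either sex. These calls come from the fit with the spread shared over the 4 groups, and limma fits of 1 sex alone gave others. In males alone 6 members were higher, with adjusted p = 0.00032 for Defb3, 0.0242 for Defb6, 0.0492 for Defb1 and 0.0308 for Lcn2. In females alone only Defb4 and Defb14 were higher, and Defb3 was not called (adjusted p = 0.0837).

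**Figure D3:**
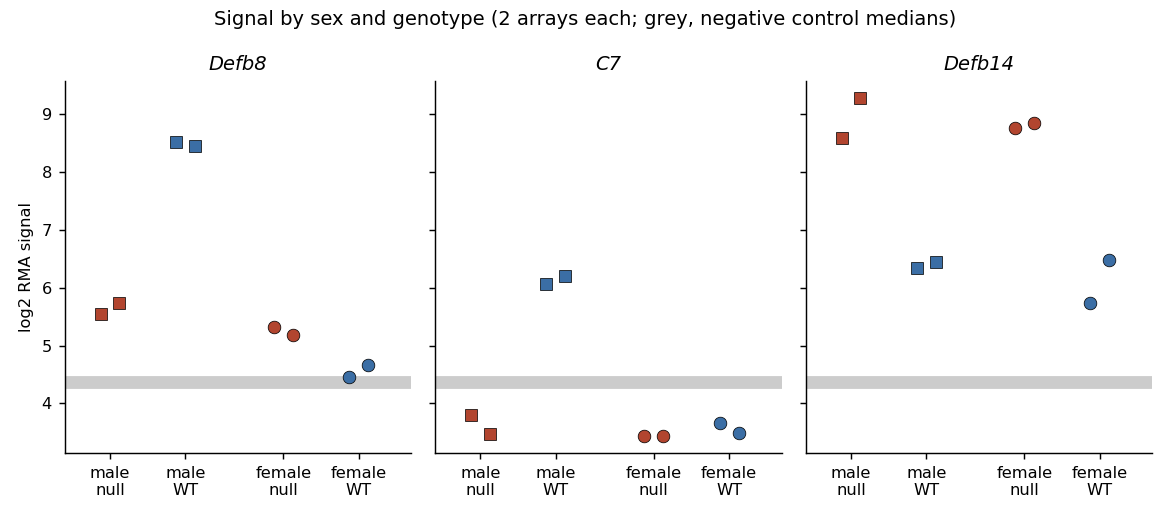
RMA signal (log2, vertical axis) of Defb8, C7 and Defb14 in each array, by sex and genotype with 2 arrays each, and the negative control medians in grey. Defb8 and C7 are high in the male WT arrays alone, at 8.46 to 8.52 and 6.06 to 6.21, while Defb14 is higher in null than in WT arrays of both sexes.

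The 250 bases before the transcription start in RefSeq (GRCm38.p6) are shown for Defb3, Defb6 and Defb8, the beta-defensin members for which the table used here gives them, because genes so alike in this window had different signals. Capitals mark matches on either strand to the NF-kappaB letters, GGG and CC with any 5 bases between them. The windows are chr8:19293111-19293360 (plus strand) for Defb3, chr8:19225228-19225477 (plus strand) for Defb6 and chr8:19447607-19447856 (minus strand) for Defb8, each written 5′ to 3′ along the gene.
Defb3: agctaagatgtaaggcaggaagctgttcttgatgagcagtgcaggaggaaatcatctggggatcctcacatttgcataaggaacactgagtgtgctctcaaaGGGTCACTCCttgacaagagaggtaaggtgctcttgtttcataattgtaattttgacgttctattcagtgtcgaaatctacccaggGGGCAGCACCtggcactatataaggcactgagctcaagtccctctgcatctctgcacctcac
Defb6: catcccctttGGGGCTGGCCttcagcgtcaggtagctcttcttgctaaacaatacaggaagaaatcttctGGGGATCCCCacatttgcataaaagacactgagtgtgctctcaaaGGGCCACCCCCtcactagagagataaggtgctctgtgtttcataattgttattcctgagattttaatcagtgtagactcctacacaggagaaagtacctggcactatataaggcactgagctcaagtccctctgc
Defb8: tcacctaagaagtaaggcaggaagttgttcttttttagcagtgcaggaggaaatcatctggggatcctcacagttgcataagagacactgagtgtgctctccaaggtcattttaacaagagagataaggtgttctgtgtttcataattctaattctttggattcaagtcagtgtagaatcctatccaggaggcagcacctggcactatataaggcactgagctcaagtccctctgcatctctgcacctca

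The Defb3 and Defb8 windows were 86.7% identical in a global alignment and shared an unbroken run of 60 bases. Defb3 and Defb6 were 74.0% identical and Defb6 and Defb8 73.5%. The window of Defb46 was 75.6% identical to that of Defb3, 69.9% to that of Defb8 and 60.8% to that of Defb6. Among the members with a window and Defb46, 22 pairs that were not both of beta-defensins ranged from 45.9% to 54.0%. Defb3 held 2 matches to the NF-kappaB letters, starting 148 and 62 bases before the start. Defb6 held 4, starting 240, 180, 135 and 134 bases before it, the last 2 overlapping, and the Defb8 window held none. Among the 7 members with a window, 4 held a match, namely Defb3, Defb6, Lcn2 and Wfdc12, as did 45.8% of 32851 promoters. The letters of AP-1 (TGANTCA), C/EBP (TTNCGNAA) and STAT (TTCNNNGAA), searched on both strands, were in none of the 7 and in 6.75%, 2.04% and 7.02% of all promoters.

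Lcn2 encodes lipocalin 2, which both neutrophils and stressed epithelia release. It read 6.43, 7.39, 7.12 and 6.63 in the null arrays, against 4.73, 5.29, 6.65 and 4.93 in the WT arrays. Female WT 1 lay among the null arrays, and the other WT arrays lay below all of them. The means were 6.89 ± 0.44 in null and 5.40 ± 0.86 in WT skin (SD, n = 4 each), a difference of 1.49 (SE 0.38, adjusted p = 0.0317), or 2.81-fold. Without female WT 1 it was 1.92 (adjusted p = 0.00130). The call was lost when any of 6 other arrays was left out, with adjusted p from 0.0506 to 0.0977, and the exact two-sided permutation test of this gene gave p = 0.0857.

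Camp encodes the cathelicidin precursor. It read 4.73, 4.51, 5.07 and 5.01 in the null arrays, against 4.70, 4.84, 5.76 and 4.66 in the WT arrays. Apart from female WT 1, again the highest WT array, both groups lay only slightly above the negative control medians. The difference of -0.16 was not called (SE 0.19, adjusted p = 0.685), and without female WT 1 it was 0.06.

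The probe set annotated to Slpi and Mir7678 read 5.77, 6.31, 5.90 and 5.68 in the null arrays, against 4.18, 4.09, 4.29 and 4.03 in the WT arrays. The groups did not overlap, and the WT signals were at or under the negative control medians. The difference was 1.77 (SE 0.13, adjusted p = 0.000112 over 65956 non-control probe sets, of which 3.92% were called higher), or 3.40-fold. With the muscle covariate it was 1.81 and stayed called (adjusted p = 0.0317).

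Wfdc12, a WAP-domain protein with antibacterial activity, was bright in every array and did not separate the groups. It read 9.75, 9.74, 10.003 and 9.71 in the null arrays, against 9.54, 9.98, 9.72 and 10.03 in the WT arrays. The difference was -0.02 (SE 0.11, adjusted p = 0.953).

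Lcn2 and Camp are also made by neutrophils, whose markers varied by array. Of 16 neutrophil markers 2 were higher in null skin, the stefin Stfa2l1 by 3.97 (adjusted p = 6.03e-05) and the chemokine receptor Cxcr2 by 0.43 (adjusted p = 0.00836), and 0 were lower (3 and 0 at an unadjusted p under 0.05 by limma). The share called higher was 12.5%, against 7.03% of all genes, and the median difference of the list was -0.04. The mean of the list was 4.72, 4.51, 4.92 and 4.85 in the null arrays, against 4.12, 4.15, 5.35 and 4.20 in the WT arrays. Its summed linear signal was 628 to 773 in null arrays and 338 to 791 in WT arrays.

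Female WT 1 was thus the highest of all 8 arrays on this list, while the other WT arrays were the lowest. The granule protein gene Ngp gave 4.94, 3.04, 4.91 and 5.37 in the null arrays, against 3.17, 3.35, 7.03 and 3.49 in the WT arrays. Other granule genes of the list differed in brightness. Ctsg, Mmp8 and Elane averaged less than the negative control medians in null and in WT skin, and Mpo lay close to them (4.30 and 4.47). Prtn3 (4.82 in null and 4.85 in WT skin), Ltf (4.76 and 4.62) and Mmp9 (5.25 and 4.95) averaged above them, none of them called. The part of neutrophil RNA in the signals of Lcn2 and Camp was not tested.

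**Figure D4:**
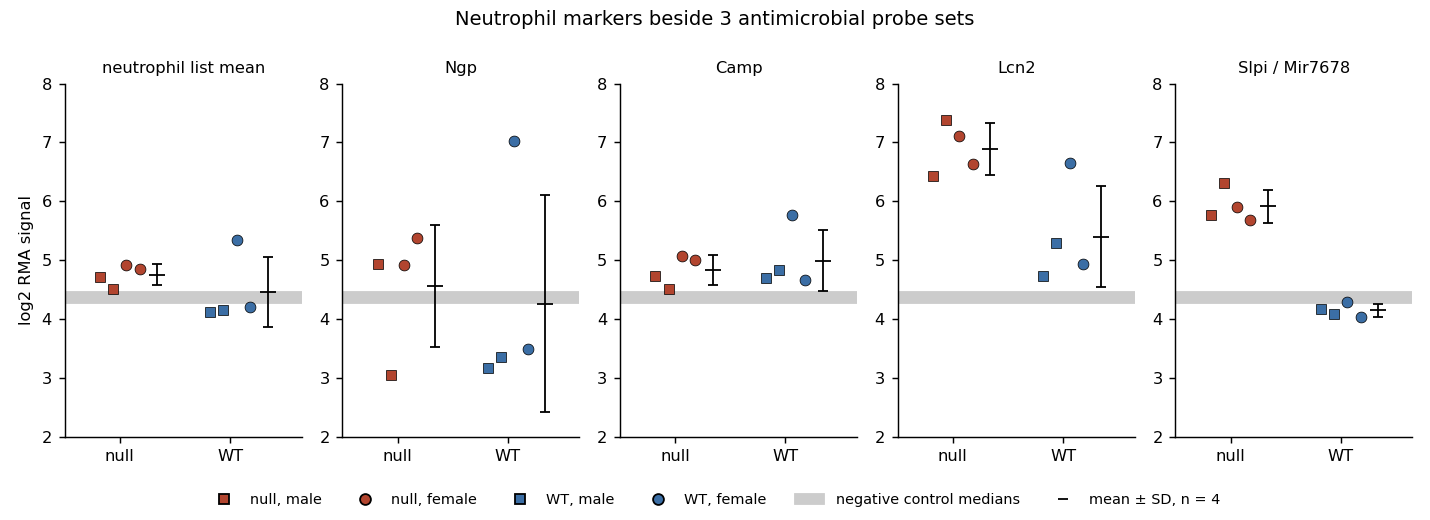
Mean RMA signal (log2, vertical axes) of the 16 neutrophil markers in each array, beside Ngp, Camp, Lcn2 and the probe set annotated to Slpi and Mir7678, with the mean ± SD of 4 mice and the negative control medians in grey. Female WT 1 is the highest WT array in every panel, at 7.03 for Ngp and 6.65 for Lcn2.

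Of 33 other beta-defensins 3 were higher (Defb46, Defb5 and Defb7), a share of 9.09% near the 7.03% of all genes, and 0 lower, with 5 and 2 at an unadjusted p under 0.05 by limma. Their median difference was 0.01, and the WT means of only 7 lay above the negative controls. Of 11 alpha-defensins, which in mice are products of intestinal Paneth cells, none exceeded the highest negative control median, 4.46, in any array. By limma 0 were called (0 higher and 2 lower at an unadjusted p under 0.05). The 2 with the smallest p were Defa21 at -0.16 (adjusted p = 0.0757) and Defa22 at -0.19 (adjusted p = 0.0915).

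Of 26 other WAP-domain and lipocalin genes 1 was higher, Wfdc2 by 0.39 (adjusted p = 0.0290), and 2 were lower. These were Wfdc21, at 7.94 ± 0.20 in null and 8.50 ± 0.15 in WT skin (SD, n = 4 each), a difference of -0.56 (adjusted p = 0.0118), and Wfdc1 with -0.44 (adjusted p = 0.0398). The share called higher was 3.85%, against 7.03% of all genes, and 5.97% of all genes were called lower. The median of the list was 0.01.

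Other antimicrobial proteins of skin moved in both directions, with 8 of 36 higher (22.2%, against 7.03% of all genes). Another 5 were lower, where 5.97% of all genes were, and the median was 0.05. S100a8 and S100a9 form calprotectin, which sequesters metal ions that microbes need. S100a8 read 10.73, 11.44, 11.18 and 10.87 in the null arrays, against 3.25, 4.30, 8.70 and 5.21 in the WT arrays. Female WT 1 was again the highest WT array, though below every null array, and the difference was 5.69 (SE 0.82, adjusted p = 0.00305). Both male WT signals were under the negative control medians of their arrays, so this size is not exact. S100a9 differed by 5.40 (adjusted p = 0.00275).

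The third largest rise of this list was that of Adm, the vasoactive and antimicrobial peptide adrenomedullin, with 8.88 ± 0.40 in null and 6.47 ± 0.30 in WT skin (SD, n = 4 each), a difference of 2.41 (adjusted p = 0.000205). The largest falls were those of the lysozyme gene Lyz1 by 1.15 (adjusted p = 0.0328), the lipopolysaccharide-binding protein gene Lbp by 0.85 (adjusted p = 0.0114) and Slurp1, a secreted keratinocyte protein, by 0.65 (adjusted p = 0.00667).

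Proteases that process antimicrobial peptides, with their inhibitors and receptors, were higher in 7 of 26 genes (26.9%, against 7.03% of all genes). They were lower in 2, where 5.97% of all genes were, and the median was 0.04. The kallikrein gene Klk6 read 9.50, 9.59, 9.55 and 9.39 in the null arrays, against 6.19, 6.62, 5.67 and 6.42 in the WT arrays. The groups lay far apart, with a difference of 3.29 (SE 0.16, adjusted p = 6.42e-06). Klk14, a kallikrein of the stratum corneum, rose by 2.06 (adjusted p = 0.0248) and the serpin gene Serpinb3a by 1.48 (adjusted p = 0.000329). Bdh2, which in mice takes part in synthesis of the siderophore that lipocalin 2 carries, fell by 0.34 (adjusted p = 0.0129), and the progranulin gene Grn by 0.24 (adjusted p = 0.0481).

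Among 44 inducers and regulators of antimicrobial genes 17 were higher (38.6%, against 7.03% of all genes). Only 1 was lower, where 5.97% of all genes were, and the median was 0.17. Il1b, the cytokine interleukin 1 beta, averaged 5.83 ± 0.87 in null and 3.61 ± 0.22 in WT skin (SD, n = 4 each), a difference of 2.22 (adjusted p = 0.00568) from WT signals under the negative controls. Il1f9, which encodes the epidermal cytokine interleukin 36 gamma, rose by 1.599 (adjusted p = 0.000141) and the epithelial transcription factor gene Elf3 by 1.51 (adjusted p = 0.000355). The flagellin receptor gene Tlr5 was the gene that fell, by 0.28 (adjusted p = 0.0136). Il17a and Il22, cytokines known to induce beta-defensins in keratinocytes, averaged less than the negative control medians in null and in WT skin, so no change in them could be measured here.

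**Figure D5:**
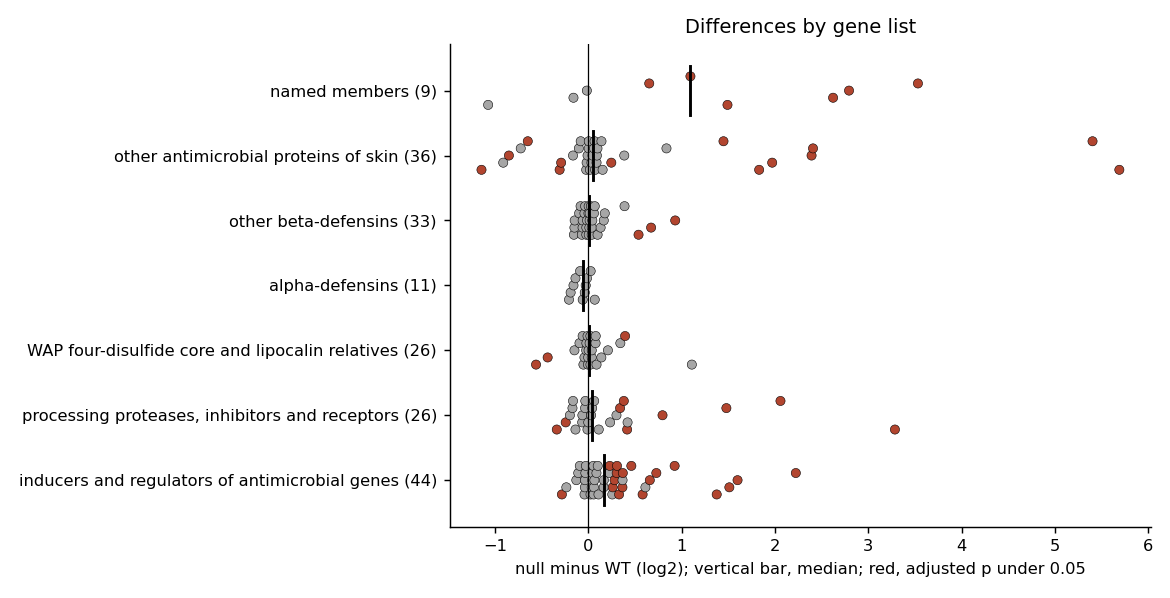
Null minus WT difference (log2, horizontal axis) of every measured gene of the 9 members and of 6 related lists, in red where the adjusted p was under 0.05, with the median of each list as a vertical bar. The median was 1.09 for the members and between -0.06 and 0.17 for the other lists.

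The genes whose profile over the 8 arrays was most like that of each higher member were taken among genes that differed by at least 1 in size. This left 276 or 277 genes to search for each member, so closer profiles among the other genes were not looked for. Likeness was the root mean square distance after each gene was centred on its own mean, a description in which all genes share the same arrays. Nearest to Defb14 were the desmosomal cadherin gene Dsc2 (distance 0.201), Psca (0.238) and the epidermal phospholipase gene Pla2g4d (0.240). Dsc2 (0.390), Defb14 (0.394) and S100a7a (0.425) were nearest to Defb3. Defb4 was nearest to the growth factor gene Epgn (0.429), Defb3 (0.448) and Klk6 (0.450).

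Defb6 lay nearest to the kallikrein gene Klk10 (0.144), Fabp5l2 (0.161) and Gm6100 (0.181). Defb1 itself differed by only 0.65, so genes with a change of its size were not searched. Among those searched, it lay nearest to Fetub (0.227), the epidermal fatty acid-binding protein gene Fabp5 (0.233) and Fabp5l2 (0.243). Lcn2 was nearest to Gm22488 (0.357), the small nucleolar RNA gene Snord45b (0.385) and the growth factor gene Hbegf (0.476).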

How the data were processed

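Total RNA of forepaw skin of 8 mice was hybridised to single-colour Affymetrix arrays after labelling with the WT PLUS kit, per the labels' protocols. The deposited table holds log2 values, 1 per probe set and array, made with Partek and RMA, per the submitters' processing notes. The sources used here give no versions, settings or genome build. RMA compresses large fold changes. Values ran from 1.36 to 13.6. Arrays have no read depth, and the number of arrays limits the precision.

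Leaving out 6732 controls from 72688 probe sets left 65956, of which the platform annotation lists 32750, 31142 with exactly 1 gene and 1608 with several after 1100 symbols were updated through a RefSeq table (GRCm38.p6). The brightest probe set stood for each of 414 genes with several, which gave 30624 genes, with no filter on dim ones. The 95th percentile of negative control signals was 7.26 to 7.43 per array, so single negative controls read as high as several members.

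Null was tested against WT with limma 3.58.1 (R 4.3.3) in a model of genotype and sex that left 5 residual degrees of freedom, with eBayes and its intensity trend. Effects per sex and their interaction came from 4 group means, with 4 residual degrees of freedom. The exact permutation test ran over 70 assignments and cannot give a p under 0.0286. The members and lists were chosen with earlier results of these data known. The text names all members, and from each antimicrobial list up to 3 called genes that rose most and 3 that fell most, or the 2 smallest p where none was called. Cell type markers are mostly given as counts. Genes outside this rule are Il17a, Il22, Ngp, Ctsg, Mmp8, Elane, Mpo, Prtn3, Ltf, Mmp9, C7 and the chromosome 8 neighbours. List genes not analysed here included Rnase4, Ang, Fpr1, Fpr2, P2rx7, Nfkb1, Trac, Tcrg-C1 and Trdc.

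The labels number the mice within sex and genotype. Deviations of same-numbered null and WT arrays from their group means correlated across genes at 0.317 in males and 0.115 in females, over the limit of 0.1, so 4 pairs were used as a replicate block in an alternative fit. The labels do not say what a number shares. Promoter windows came from RefSeq's table, which gave them for 7 of the 10 members, and identity is the share of identical columns in a global alignment.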

Additional observations from a re-analysis of the deposited data

Results flagged for a closer look

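Within groups of 4 arrays, the gap of the most extreme array to its nearest neighbour was set against the whole range of the group (Dixon's test at its 95% critical value), for 48 named genes and probe sets. Chance gives about 1 in 20 groups, and 4 of 96 groups passed. The gap took 0.846 of the WT range for Defb3, where female WT 1 was low, 0.838 for Camp, where it was high, and 0.844 for the complement gene C1qc of the macrophage list, where it was also the array apart. In the null group female null 1 stood apart for Wfdc12 (0.863).

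The effect on Defb8 differed between the sexes, by -3.54 for males minus females (SE 0.15, adjusted p = 0.000340 over all genes). It was lower in 2 of 2 male null arrays and higher in 2 of 2 female null arrays than in the WT arrays of the same sex. The female WT signals lay just above the negative control medians.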

How the results depend on the processing

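The count of 6 higher genes was also 6 without a sex term, with repeated quantile normalization, median centring, array weights, no trend, probe sets averaged per gene, dim genes filtered out or every non-control probe set tested, and in males only. With the replicate block of 4 pairs it was 6 as well, no member's call changed, and 2532 genes were higher and 2002 lower over all. A robust prior left 5 (Lcn2 lost, adjusted p = 0.115) and leaving out 1 array 5 to 6. The muscle covariate left 1, with 203 genes higher and 75 lower over all. Females only left 2, Defb4 and Defb14, with 228 higher and 139 lower over all. Males only gave 790 and 383, and 1 member lower, Defb8. Leaving out 1 array gave 1192 to 2277 higher and 830 to 1853 lower, the higher count falling to 1304 (male WT 1 left out), 1192 (male null 2) and 1223 (female null 1), and the lower count to 1066, 830 and 839 for these and 1098 for female null 2. Sign changes were confined to genes that were not called: Defb8 was 0.69 in females only (adjusted p = 0.0613), Camp 0.56 with the muscle covariate and -0.38 to 0.062 on leaving out 1 array, and Wfdc12 -0.10 to 0.071 on leaving out 1 array. With the muscle covariate Lcn2 was 2.26 (adjusted p = 0.157). The causes were not tested. Fits on 1 sex rest on 2 arrays per genotype. Signals near the negative controls also limit what these data can show. Among these were Camp, the female WT arrays of Defb8 and the WT arrays of the probe set annotated to Slpi and Mir7678.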
